A study of Temnothorax rugatulus with 32 samples.

Results

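A set of 96 transcript contigs from queens of the ant Temnothorax rugatulus was described here, each of them best matched to a protein of another ant described as uncharacterized. They were chosen from the authors' deposited tables of contigs that differed between old and young queens. A contig was kept if its description held the word uncharacterized or hypothetical, if the species of the match was an ant, and if its mean reached at least 5 counts per 1000000 counts of the library (CPM) in at least 1 of the 4 age and tissue groups. None of the 96 descriptions used the word hypothetical. The 96 came from 1755 contigs in either age table, 1073 of which had any description, and from 228763 contigs in the whole count table. Another 58 uncharacterized contigs with an ant match stayed under 5 CPM in every group. Of the 96, 88 were listed for age in the fat body, 8 were listed for age in the brain, and 0 were listed in both tables. The age differences that put a contig in its table are therefore given as a description and not as a test.

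The study measured RNA in 8 old and 8 young queens taken from the field, with the fat body and the brain of each queen sequenced separately, which gave 32 libraries from 16 queens. The groups were old fat bodies, young fat bodies, old brains and young brains, 8 libraries each. No treatment was applied and age was given as old or young without a number of years. Total counts were 22798433 to 29614630 in old fat bodies, 20658985 to 31200003 in young fat bodies, 13861667 to 27434445 in old brains and 23826705 to 33461227 in young brains. Levels are given below as CPM scaled by the trimmed mean of M values (TMM), a factor that evens out libraries in which a few very abundant transcripts take up reads. Differences are on the log2 scale, as old minus young or as fat body minus brain.

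The insect fat body is the organ that stores fat and glycogen and makes most proteins of the blood, the yolk proteins of queens among them, while the brain is built of neurons and glia. An uncharacterized protein is in most cases a gene model predicted from a genome sequence for which no domain or relative gave a name. Some carry the name of a related gene. Many uncharacterized proteins are found in a few related lineages only, and others are old, conserved proteins that were never studied. Names that begin with LOC are catalogue numbers of such gene models. Of the 96 contigs, 88 carried such a number, with 80 distinct numbers among them. The best matches came from 14 ant species, led by Vollenhovia emeryi with 37 contigs, Wasmannia auropunctata with 16 and Acromyrmex echinatior with 8. The contigs were 501 to 12033 bases long with a median of 2578 bases, against 2577 bases for the age-listed contigs with an ant match and a functional description at the same minimum level. The 58 uncharacterized contigs below that level had a median of 984 bases.

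The tissue labels could be checked only with described contigs, since descriptions were deposited for contigs listed for age. Complexin, a protein of synaptic vesicle release, lay between 0.402 and 1.46 CPM in 6 old fat bodies, between 0.0841 and 0.684 CPM in young fat bodies and between 41 and 195 CPM in the brains. The old fat bodies of queens O-269 and O-482 stood apart with 4.44 and 5.57 CPM of complexin. The differences that moved by over 1.5 times without them, those of TR74272c1_g1_i1 and TR74520c0_g1_i4 among the named contigs, are given with and without them. Transferrin, an iron-binding blood protein that the fat body makes, had 970 to 8296 CPM in old fat bodies, 54.8 to 2648 CPM in young fat bodies, 136 to 448 CPM in old brains and 113 to 330 CPM in young brains. It was above every brain in all old fat bodies, and young fat bodies overlapped the brains. Across the 6 contigs on the neuron list the summed level was 93.2 to 179 CPM in old fat bodies, 183 to 245 CPM in young fat bodies, 165 to 289 CPM in old brains and 226 to 357 CPM in young brains. Of that list, complexin and an acetylcholine receptor subunit were lower in fat bodies, while the neuroligin and synaptobrevin contigs had tissue differences of 0.09 to 1.57. Some other marker lists also moved with age in the fat body. The summed muscle list was 1.21 to 7.23 CPM in old and 2.39 to 29 CPM in young fat bodies, and the venom gland contig was 103 to 285 CPM in old and 53.8 to 112 CPM in young fat bodies. Their part in the age differences below was not tested, and these markers were themselves listed for age.

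Most of the uncharacterized contigs were listed for the fat body, and they made up a larger share of the counts there than in brains. Together they held 5.47% ± 0.603 of the counts in old fat bodies, 3.33% ± 1.17 in young fat bodies, 0.814% ± 0.0643 in old brains and 0.81% ± 0.108 in young brains (SD, n = 8 each). A single contig, TR57929c2_g1_i1, carried most of the fat body share. Without it the shares were 1.98% ± 0.283 in old fat bodies, 1.18% ± 0.227 in young fat bodies, 0.771% ± 0.0552 in old brains and 0.748% ± 0.0725 in young brains. Levels spanned a wide range, with 33 contigs at 100 CPM or more and 7 at 1000 CPM or more in at least 1 group. At the other end, 10 contigs were under 1 CPM in both brain groups and 3 were under 1 CPM in both fat body groups. Just inside the minimum stood contigs with a highest plain group mean of 5.13, 5.35 and 5.61 CPM, and just outside it stood contigs with 4.59, 4.7 and 4.99 CPM.

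TR57929c2_g1_i1, an 806-base contig matched to LOC105448965 of Wasmannia auropunctata, was among the most abundant transcripts of the fat body. Its lowest, median and highest levels were 38370, 52818 and 89503 CPM in old fat bodies against 8239, 25897 and 44804 CPM in young fat bodies. All 8 old fat bodies lay above the median of the young ones, and the groups overlapped at their edges. By mean CPM it ranked 4 among all contigs in both fat body groups, and by CPM per kilobase it ranked 3 in old and 2 in young fat bodies. Its brain median was 219 CPM in old queens and 306 CPM in young queens. Its tissue difference was 6.73 ± 0.42 (SE, edgeR adjusted p = 1.5e-14), and its fat body age difference was 1.01 ± 0.30.

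Per kilobase of contig, the next most abundant in old fat bodies were TR65927c0_g1_i1, matched to LOC105559141 of Vollenhovia emeryi, at 2357 CPM per kilobase, and TR74678c0_g1_i1, matched to LOC105568024 of the same species, at 1172 CPM per kilobase. TR57929c2_g1_i1 stood at 68974 CPM per kilobase in the same libraries. TR65927c0_g1_i1 had 3276, 7594 and 20089 CPM as its lowest, median and highest levels in old fat bodies against 185, 2830 and 4278 CPM in young fat bodies, a difference of 2.14 ± 0.60. The ranges overlapped, and all 8 old libraries lay above the young median. In young fat bodies the next places per kilobase after TR57929c2_g1_i1 went to contigs that were lower in old queens. These were TR81923c0_g1_i1, matched to LOC105463022 of Wasmannia auropunctata, at 1619 CPM per kilobase, and TR49498c0_g1_i1, matched to LOC105144299 of Acromyrmex echinatior, at 901 CPM per kilobase.

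**Figure D1:**
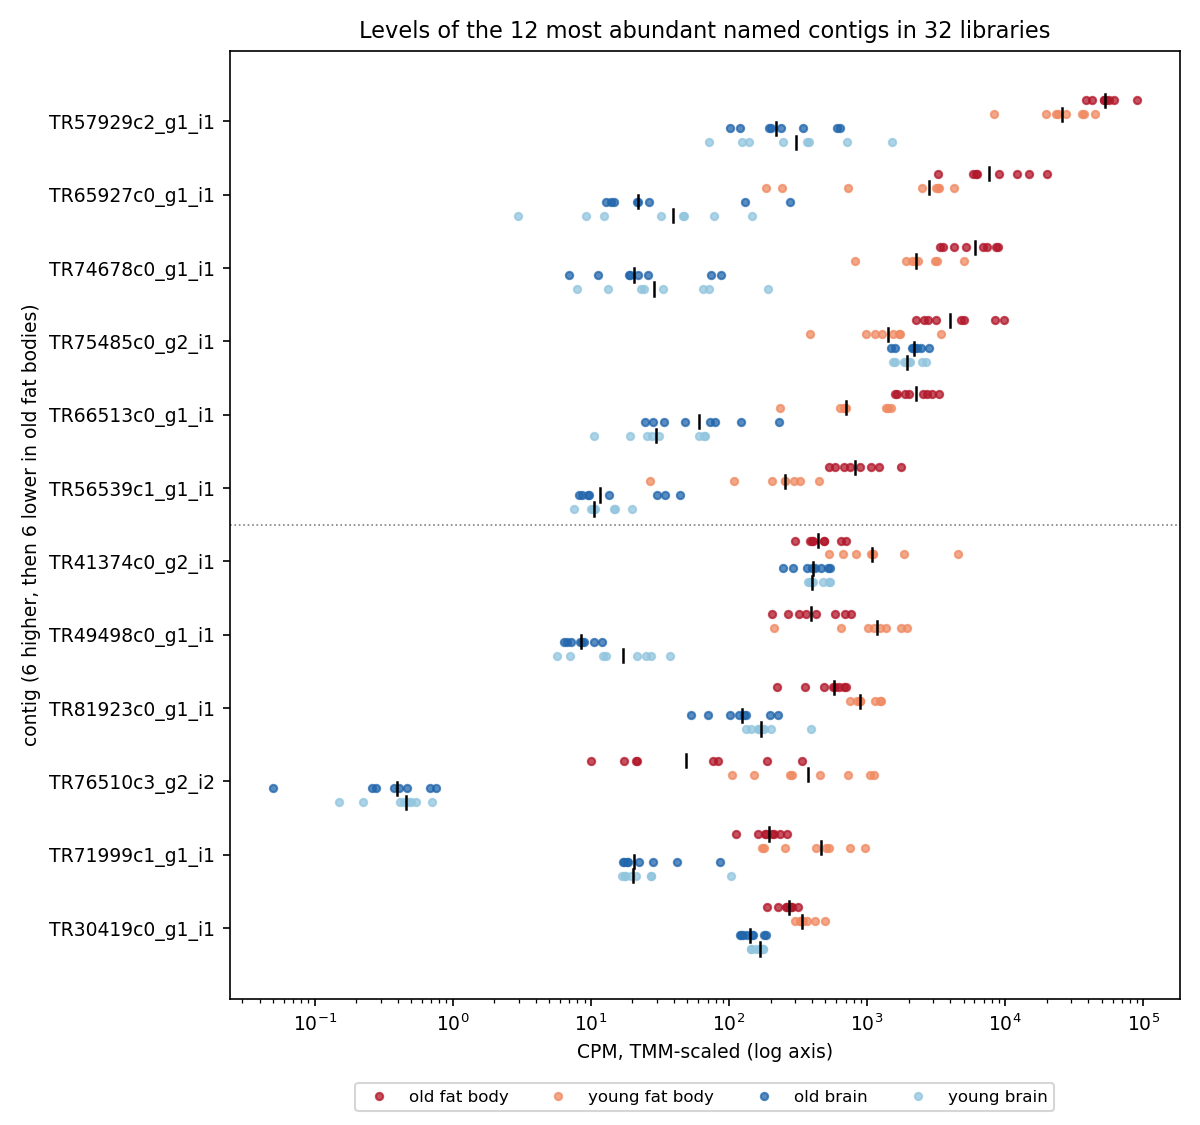
Level in each of the 32 libraries (horizontal log axis, TMM-scaled CPM, values under 0.05 drawn at 0.05) of the 6 most abundant contigs that were higher and the 6 that were lower in old fat bodies. Points are libraries and black ticks are medians of 8; TR57929c2_g1_i1 stands far to the right of the others in both fat body groups.

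Most of the 96 contigs differed between tissues, and more of them were higher in the fat body than in the brain. On the mean of both ages, 64 of 96 (66.7%) were higher in the fat body at an edgeR adjusted p under 0.05 and 23 of 96 (24%) were higher in the brain. The edgeR tissue fit took the brain and fat body of a queen as independent. Separately, 19 of the 92 calls of this fit were false in simulated data, which held no queen effect and few changed contigs. Over all 48253 contigs tested, 25.2% were higher in the fat body and 40% were higher in the brain. The median difference was 0.84 over the 96 and -0.39 over all contigs. A like share was found among the described contigs with an ant match, where 325 (64.6%) were higher in the fat body and 104 (20.7%) were higher in the brain. Contigs listed for a fat body difference have to be detected there: 17 of the 96 reached 5 CPM in the fat body only, and all 17 were higher there, while 11 reached it in the brain only, and all 11 were higher in the brain. Of the 68 that reached 5 CPM in both tissues, 47 were higher in the fat body and 12 in the brain, with a median difference of 0.70.

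This split depended on how the tissues were scaled. The TMM factors were 0.578 to 0.778 in old fat bodies, 0.613 to 0.956 in young fat bodies, 1.34 to 1.58 in old brains and 1.34 to 1.5 in young brains, and they moved the median tissue difference of all contigs by 1.01. Without them, 37 contigs were higher in the fat body and 44 were higher in the brain. The 37 (38.5%) were higher in the fat body and 23 (24%) were higher in the brain under both scalings, against 14.2% and 40% of all contigs. By age, 59 of 96 were higher in the fat body and 16 in the brain among old queens, where 26.1% and 29.7% of all contigs were. Among young queens 59 of 95 were higher in the fat body and 22 in the brain, where 23% and 34% of all contigs were. Of the 95 contigs tested in both ages, 49 (51.6%) were called higher in the fat body in both and 14 (14.7%) higher in the brain in both, against 20.9% and 27.5% of all 31624 contigs tested in both, and 0 were called in opposite directions. The old fat body libraries enter both this difference and the age difference that listed a contig, so the 2 are not independent.

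Among the contigs with the widest tissue differences, TR76510c3_g2_i2, matched to LOC105560735 of Vollenhovia emeryi, was close to 0 in brains. It had 10.1, 49.1 and 338 CPM (lowest, median and highest) in old fat bodies, 106, 371 and 1129 CPM in young fat bodies, 0.0434, 0.393 and 0.759 CPM in old brains and 0.151, 0.458 and 0.711 CPM in young brains. Every fat body lay above every brain, and the tissue difference was 9.02 ± 0.58 (SE, edgeR adjusted p = 3.4e-14). Next came TR63142c0_g1_i3 with 6.77 ± 0.72, TR57929c2_g1_i1 with 6.73 ± 0.42 and TR74678c0_g1_i1 with 6.54 ± 0.47. TR74678c0_g1_i1 had medians of 6049 CPM in old fat bodies, 2281 CPM in young fat bodies, 20.5 CPM in old brains and 28.8 CPM in young brains.

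At the brain end stood TR74272c1_g1_i1, matched to LOC105182301 of Harpegnathos saltator, with a tissue difference of -6.33 ± 0.44 (SE, edgeR adjusted p = 1.6e-13). Without the old fat bodies of queens O-269 and O-482, which were its highest fat body libraries, the difference was -7.07 (edgeR adjusted p = 1.7e-16). TR74372c0_g1_i2, matched to LOC108751758 of Trachymyrmex septentrionalis, followed with -5.55 ± 0.53, TR75589c2_g1_i5 with -4.90 ± 1.22 and TR69121c0_g1_i1 with -4.72 ± 0.47. TR69121c0_g1_i1, matched to LOC105458274 of Wasmannia auropunctata, had 0.273, 1.07 and 4.97 CPM in old fat bodies, 0 to 0.638 CPM in young fat bodies, 10.3, 14.1 and 18.1 CPM in old brains and 10.8, 14.1 and 15.6 CPM in young brains. No fat body reached the level of any brain. The contigs with the smallest tissue differences were TR60948c0_g1_i1 with 0.02 ± 0.07, TR72450c0_g1_i1 with -0.04 ± 0.12, TR76507c0_g1_i1 with 0.05 ± 0.09 and TR43162c0_g1_i1 with 0.18 ± 0.13. All 4 were lower in old fat bodies, and without TMM scaling all 4 were higher in the brain, by 0.84 to 1.05 in size.

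**Figure D2:**
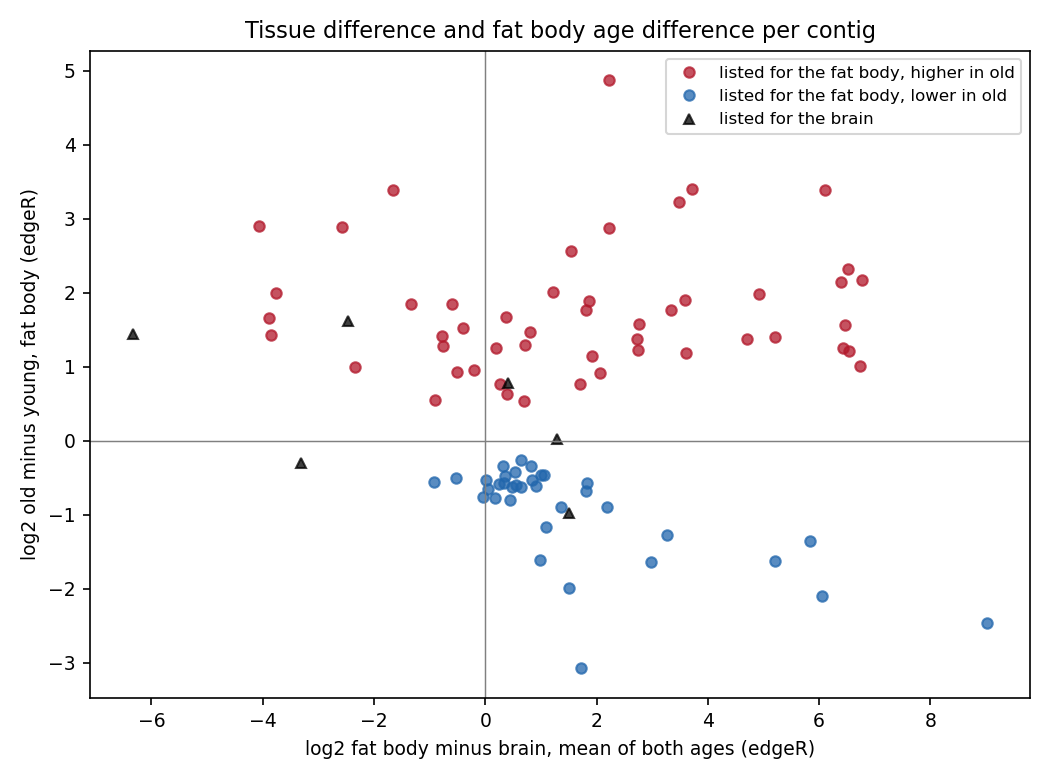
Tissue difference (horizontal axis, log2 fat body minus brain) against fat body age difference (vertical axis, log2 old minus young) for the 91 contigs tested in the fat body; each point is a contig. Contigs that were higher in old fat bodies spread from about the brain end to the fat body end, while those lower in old fat bodies gather near and to the right of 0 on the tissue axis.

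In the fat body, 53 of the 88 listed contigs were higher in old queens and 35 were lower, 60.2% higher in old. For comparison, 38.5% of 481 described contigs with an ant match at 5 CPM or more in the same table were higher in old fat bodies. The share was 75.5% of 49 uncharacterized contigs with an ant match under 5 CPM and 64.6% of 48 uncharacterized contigs without an ant match. It was 81.2% of 633 contigs without any description. The last 2 lists had no minimum level. Among the 88, the contigs that were higher in old queens differed by more: their median difference was 1.54, from 0.54 to 4.87. Of the 50 of them that passed the count filter, 41 differed by 1 or more. Those that were lower had a median of -0.63, from -0.27 to -3.08, and 10 of 35 differed by 1 or more in size. The lower contigs also varied less between queens, with a median SD on the log2 scale of 0.286 in old and 0.261 in young fat bodies, against 0.654 in old and 0.626 in young fat bodies for the higher ones. Contigs were listed by an adjusted p on these libraries, so a small difference was listed more readily with a small spread. The contrasts in size and in spread are therefore tied by the choice of contigs. All 85 contigs that passed the count filter had the sign of the authors' deposited table. The edgeR fit called 18 higher and 3 lower of 91 tested, where 0.452% and 0.195% of all contigs were called. In 10 contigs every old fat body lay above every young one and in 3 every old fat body lay below, where 0.304% and 0.188% of all contigs did. These counts follow from how the contigs were chosen. In bulk tissue, fewer cells of a type and less RNA per cell cannot be told apart.

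The tissue pattern is given next by direction of the fat body age difference. Of the 53 contigs higher in old fat bodies, 33 were higher in the fat body, 16 were higher in the brain and 4 were not called. Of the 35 lower in old fat bodies, 29 were higher in the fat body, 2 were higher in the brain and 4 were not called. Over all contigs 25.2% were higher in the fat body and 40% were higher in the brain. Of these, 48253 were tested between tissues and 27664 by age in the fat body, so many did not pass the count filter there. Among the described age-listed contigs with an ant match the shares were 64.6% and 20.7%. The brain-biased share of the 53 lay between those of the 2 lists, and that of the 35 lay below both. The described list had the same 5 CPM minimum, while all contigs had none. Over the whole set, 17 contigs reached 5 CPM in the fat body only and 11 in the brain only. All of them were called higher in the tissue where they reached it. The minimum thus partly fixes the tissue split, so the comparison with all contigs cannot show a tissue bias in either direction group. The 16 brain-biased contigs had median levels of 9.37 CPM in old fat bodies, 2.88 CPM in young fat bodies, 16.1 CPM in old brains and 16.7 CPM in young brains. In the 13 of them that passed the count filter the median age difference was 1.52, from 0.55 to 3.38. Without the old fat bodies of queens O-269 and O-482, in which complexin was raised, the median was 1.58, from 0.52 to 3.60. The sign of these values is largely fixed by how the contigs were chosen.

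TR68101c1_g1_i1, matched to a partial protein LOC105570848 of Vollenhovia emeryi, had the widest age difference, 4.87 ± 1.05. Its lowest, median and highest levels were 6.19, 10.9 and 58.6 CPM in old fat bodies against 0, 0.417 and 1.96 CPM in young fat bodies. The groups did not overlap. In brains it stayed between 0.118 and 1.36 CPM in both ages. TR48006c0_g1_i1, matched to LOC105147137 of Acromyrmex echinatior, had 48.3, 84.6 and 108 CPM in old fat bodies against 1.39, 7.62 and 13.6 CPM in young fat bodies, with no overlap and a difference of 3.40 ± 0.36.

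TR41232c0_g2_i1, matched to LOC105432167 of Pogonomyrmex barbatus, had 143, 262 and 533 CPM in old fat bodies against 0.252, 3.92 and 105 CPM in young fat bodies. The groups did not overlap, and the young queens spread over the wider range on the log scale. The difference was 3.39 ± 1.09 by edgeR and 6.24 by limma-voom. TR63592c0_g1_i1, matched to LOC105449769 of Wasmannia auropunctata, had 12.3, 26.8 and 95.9 CPM in old fat bodies against 1.85, 3.69 and 6.88 CPM in young fat bodies, also without overlap, a difference of 3.22 ± 0.42. Both were low in brains, with medians of 1.63 CPM in old brains and 0.421 CPM in young brains for TR41232c0_g2_i1 and of 0.938 CPM in old brains and 0.94 CPM in young brains for TR63592c0_g1_i1.

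TR75485c0_g2_i1, matched to LOC105568228 of Vollenhovia emeryi, was abundant in both organs. It had 2265, 3978 and 9751 CPM in old fat bodies, 386, 1418 and 3422 CPM in young fat bodies, 1480, 2204 and 2817 CPM in old brains and 1536, 1951 and 2683 CPM in young brains. The brains of both ages covered nearly the same range. Among old queens the fat body was higher by 1.36 ± 0.30 (SE, edgeR adjusted p = 0.00085), and among young queens the tissue difference was -0.37 ± 0.31 (SE, edgeR adjusted p = 0.33). Whether these differ was not tested. Over the whole list the sign of the tissue difference was not the same in the 2 ages for 14 contigs.

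Among the contigs lower in old fat bodies, TR74520c0_g1_i4, matched to LOC108764326 of Trachymyrmex cornetzi, had the widest difference, -3.08 ± 0.80, and -4.21 without the old fat bodies of queens O-269 and O-482, its highest old libraries. It had 0.81, 6.37 and 26.9 CPM in old fat bodies against 4.65, 73.2 and 160 CPM in young fat bodies. The ranges overlapped, and all 8 old libraries lay below the young median. TR76510c3_g2_i2, described above for its low brain level, followed with -2.47 ± 0.75. TR41374c0_g2_i1, matched to LOC108720415 of Trachymyrmex zeteki, had the highest group mean CPM of the lower contigs, in young fat bodies, where a single library, Y-361, stood at 4552 CPM. It had 301, 445 and 703 CPM in old fat bodies against 528, 1088 and 4552 CPM in young fat bodies, with 409 CPM as its median in old brains and 401 CPM in young brains.

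TR81923c0_g1_i1 had 222, 578 and 700 CPM in old fat bodies against 755, 892 and 1258 CPM in young fat bodies, a difference of -0.90 ± 0.22. Every old fat body lay below every young one. TR60948c0_g1_i1, matched to LOC105430465 of Pogonomyrmex barbatus, and TR55608c0_g1_i5, matched to the C18orf19 homolog A of Wasmannia auropunctata, were the other contigs whose old fat bodies all lay below the young ones. TR60948c0_g1_i1 had 17.5 to 28.4 CPM in old against 29.5 to 38.5 CPM in young fat bodies. TR55608c0_g1_i5 had 9.92 to 14.3 CPM in old against 14.7 to 22.8 CPM in young fat bodies.

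Some libraries were often at the edge of their group. Among the 53 contigs higher in old fat bodies, young queen Y-102 was the lowest young library in 18, young queen Y-453 was the highest in 15 and young queen Y-651 was the highest in 14. Among the old libraries, queen O-796 was the highest in 15 of the 53 and queen O-426 was the lowest in 18. Queen O-426 was also the highest old library in 10 of the 35 contigs lower in old fat bodies. Queen Y-453 was also the lowest young library in 15 of the 35 contigs lower in old fat bodies, and the highest in 0 of them. In these counts the old queen O-426 lay toward the young group and the young queen Y-453 toward the old group in both directions. Age classes were taken from the labels in every comparison.

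A group of 8 of the 96 contigs carried a name in place of a catalogue number, taken from a related gene in another organism. The C15orf41 homolog, the C9orf78 homolog and the C18orf19 homolog A are called after open reading frames of human chromosomes, the KIAA0930 homolog after a human complementary DNA, CG5902-like after a Drosophila gene, F10E9.5-like after a Caenorhabditis elegans gene and DDB_G0282129 after a Dictyostelium gene. The last, the uncharacterized aarF domain-containing protein kinase 1, belongs by its name to a kinase family known from mitochondria. All 8 were listed for the fat body, 6 lower and 2 higher in old queens, and their differences were small. The KIAA0930 homolog, TR73287c0_g2_i1, had the widest, 0.95 ± 0.25, with 51.2 ± 19.9 CPM in old fat bodies against 26.5 ± 3.94 CPM in young fat bodies (SD, n = 8 each). CG5902-like, TR75188c6_g2_i1, followed with 0.76 ± 0.20. The 6 lower ones had differences between -0.35 for the kinase TR76386c8_g3_i1 and -0.61 for the C18orf19 homolog A. The kinase had 85 ± 8.19 CPM in old fat bodies, 109 ± 15.2 CPM in young fat bodies, 73.9 ± 7.72 CPM in old brains and 80.7 ± 7.55 CPM in young brains. DDB_G0282129, TR74186c10_g1_i1, was the only one of the 8 called higher in the brain, by -0.92 ± 0.10.

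Contigs of a de novo assembly fall into components, sets of contigs that share sequence and may be isoforms of a gene. Of the 96, 47 were alone in their component and 49 had other contigs beside them. The submitters' processing notes name RSEM, which divides reads between similar contigs, so the split within a component is less certain than its sum. For 6 contigs the share of the component was at least 30 percentage points higher in the fat body and for 3 it was at least 30 points higher in the brain. Of these 3, TR75644c7_g1_i1 held 0% to 100% of its component across fat bodies, where it reached at most 4.88 CPM. No such count over all components is given here. TR56539c1_g1_i1, matched to LOC105568212 of Vollenhovia emeryi, held 72.3% of its component in fat bodies and 9.76% in brains. TR48006c0_g1_i1 held 64% in fat bodies and 9.71% in brains. TR74176c7_g1_i2, matched to LOC105556764 of Vollenhovia emeryi, held 21% in fat bodies and 82.1% in brains.

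In several components the listed contig differed with age in the fat body by more than its neighbour, which follows in part from listing contigs by that difference. TR48006c0_g1_i1 held 86.7% ± 5.8 of its component in old fat bodies and 41.4% ± 17.6 in young fat bodies (SD, n = 8 each). Its neighbour TR48006c0_g1_i2 averaged 12 ± 4.66 CPM in old fat bodies and 10.5 ± 3.61 CPM in young fat bodies, and 18.2 ± 3.85 CPM in old brains and 18 ± 1.97 CPM in young brains. The neighbour was thus higher in brains where TR48006c0_g1_i1 was close to 2 CPM. The summed component was higher in old fat bodies by 2.33 ± 0.18.

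TR74176c7_g1_i2 had 1.5, 28 and 70.6 CPM in old fat bodies, 0.442, 1.96 and 12.6 CPM in young fat bodies, 99.9, 150 and 194 CPM in old brains and 157, 180 and 202 CPM in young brains. It held 34.6% ± 15.6 of its component in old fat bodies and 7.46% ± 6.5 in young fat bodies. Its neighbour TR74176c7_g1_i1 averaged 39.9 ± 21.6 CPM in old fat bodies and 38.1 ± 11.5 CPM in young fat bodies, an age difference of 0.06. The summed component differed by 0.64 ± 0.33. TR70698c0_g1_i2, matched to LOC108758195 of Trachymyrmex cornetzi, had a like pattern, with an age difference of 3.38 ± 0.97 against 0.48 for its neighbour TR70698c0_g1_i1. TR75875c7_g4_i3, matched to LOC105564712 of Vollenhovia emeryi, went the other way. Its own age difference was 1.37, that of its neighbour TR75875c7_g4_i1 was 2.04, and its share was 22.5% ± 6.85 in old and 38.1% ± 17 in young fat bodies.

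**Figure D3:**
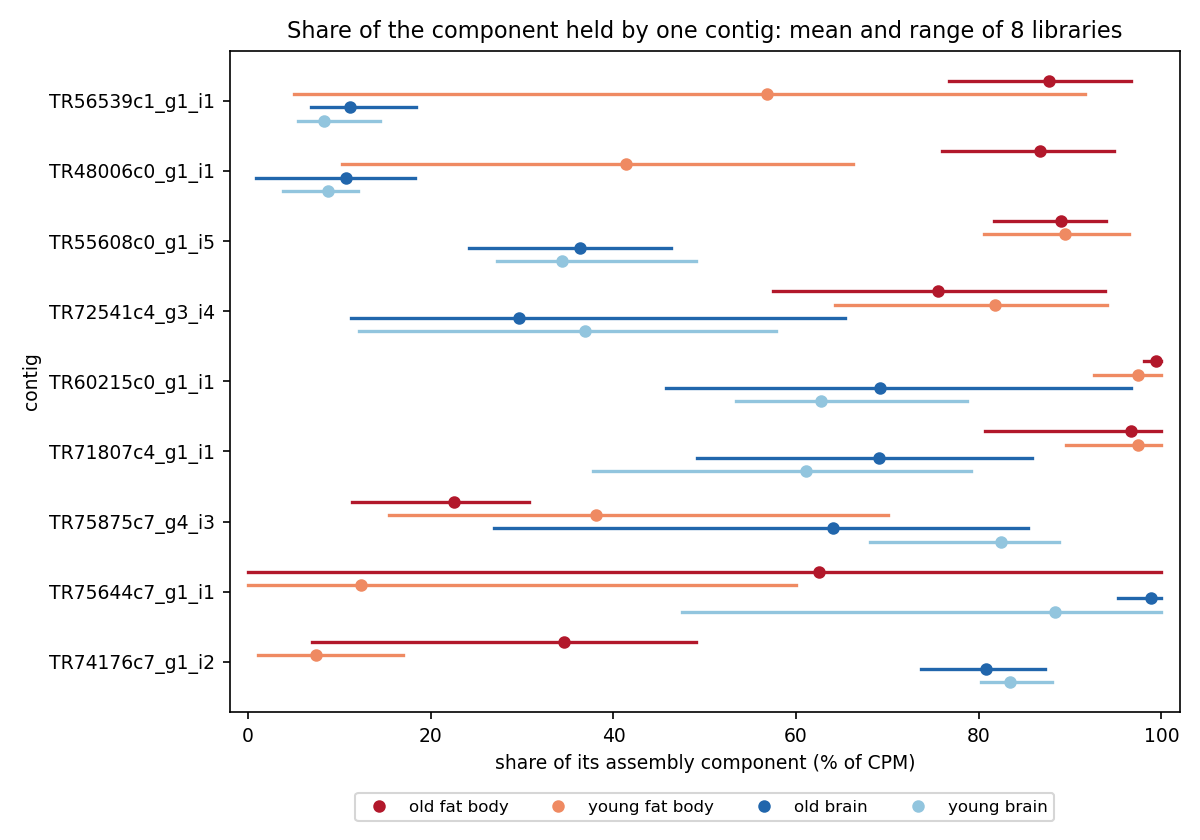
Share of its assembly component (horizontal axis, % of CPM) held by each of the 9 contigs whose share differed by 30 points or more between tissues; points are means and lines the range of 8 libraries per group. TR48006c0_g1_i1 holds 86.7% in old fat bodies and 41.4% in young fat bodies, and about 10% in brains.

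Some contigs shared a best match, and such contigs may be parts or isoforms of a gene and are not separate evidence. There were 6 such matches with 14 contigs in all, and contigs with a shared match had the same direction of age difference in the fat body. The 3 contigs of TR63142c0_g1, all matched to LOC108722739 of Trachymyrmex zeteki, were higher in old fat bodies by 2.32 ± 0.57, 1.56 ± 0.41 and 2.17 ± 0.55 in the order i1, i2 and i3. TR63142c0_g1_i1 had 159, 382 and 662 CPM in old fat bodies, 5.42, 63.8 and 251 CPM in young fat bodies, and no more than 6.37 CPM in any brain. The 3 contigs of TR71402c0_g1, matched to LOC105570638 of Vollenhovia emeryi, were higher in old fat bodies by 1.25 to 1.52. TR71402c0_g1_i3 was higher in the brain among young queens (tissue difference -1.05 ± 0.25, edgeR adjusted p = 0.0018) and not called among old queens (0.48 ± 0.21, edgeR adjusted p = 0.061), and whether these differ was not tested.

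LOC105456338 of Wasmannia auropunctata was matched by TR54535c0_g1_i1 and TR54535c0_g3_i1, short contigs of 767 and 501 bases from separate components. TR54535c0_g1_i1 had 1.77, 4.72 and 13.2 CPM in old fat bodies against 12.5, 21.2 and 52 CPM in young fat bodies. TR54535c0_g3_i1 had 2.04, 5.55 and 16.7 CPM in old fat bodies against 12, 21.5 and 28.6 CPM in young fat bodies. Both were lower in old queens, by -2.10 ± 0.39 and -1.63 ± 0.39, with overlap at the edges, and both were under 2 CPM in every brain. TR72378c0_g1_i1 and TR71427c0_g1_i1, both matched to LOC105566413 of Vollenhovia emeryi, were higher in old fat bodies by 1.18 ± 0.23 and 1.90 ± 0.33, with nearly equal tissue differences of 3.60 ± 0.14 and 3.59 ± 0.25.

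In 9 contigs the libraries of 1 tissue ran from under 0.1 CPM to 5 CPM or more, in plain CPM. In 5 this was seen in the fat body and in 4 in the brain. TR68101c1_g1_i1 was under 0.1 CPM in 4 young fat bodies and in 0 old ones. TR70698c0_g1_i2 was under 0.1 CPM in 2 young fat bodies and in 0 old ones. TR67888c0_g12_i7, TR52985c0_g1_i1 and TR74168c2_g1_i2 were under it in 1 young fat body each and in 0 old ones. In the brain, TR74520c0_g1_i4 had 1.28 to 29 CPM in old and 0.0667 to 49.2 CPM in young brains. TR75589c2_g1_i5, matched to LOC108780084 of Cyphomyrmex costatus and 1 of 16 contigs in its component, had 0, 0.523 and 1.29 CPM in old fat bodies and 0 CPM in all 8 young fat bodies. It had 0, 2.53 and 10.5 CPM in old brains against 0, 0.0472 and 3.22 CPM in young brains, and its tissue difference of -4.90 ± 1.22 (SE, edgeR adjusted p = 0.0011) was -1.86 by limma-voom (adjusted p = 0.13).

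The 88 contigs listed for the fat body were next compared by age in the brain, a difference that did not list them. Brain levels did count toward the 5 CPM minimum, and TR75589c2_g1_i5 passed it only in old brains, at a plain mean of 5.61 CPM. Of the 86 that passed the count filter, 0 had an edgeR adjusted p under 0.05, where 0% of all 40572 contigs tested did. The same count was 0 by limma-voom, by DESeq2 and in an edgeR fit over all 32 libraries. In simulated data the brain age fit recovered 15% of 2-fold and 60% of 4-fold changes, so differences of these sizes may go uncalled. At an unadjusted edgeR p under 0.05 there were 13 of 86 (15.1%), against 4.64% of all contigs and 17.7% of the 486 described contigs with an ant match that were tested. In 0 of the 88 did the old and young brains fall apart without overlap, where 0.0222% of all contigs did so with old higher and 0.0296% with old lower. The brain differences had a median of 0.19, from -0.64 to 2.67, over the 52 tested contigs higher in old fat bodies (40 above 0 and 12 below). Over the 34 lower ones the median was -0.08, from -1.48 to 0.30 (5 above and 29 below). TR41232c0_g2_i1 had 0.182, 1.63 and 6.09 CPM in old brains against 0.0667, 0.421 and 2.13 CPM in young brains, a difference of 2.21 ± 0.78 (SE, edgeR unadjusted p = 0.012, adjusted p = 0.9). The groups overlapped, and 7 of 8 old brains lay above the young median. Of 83 contigs tested in both tissues, 66 (79.5%) had the same sign of age difference in brain and fat body, against 58% of all 23824 contigs tested in both. The 2 shares are not of like contigs. The median fat body age difference in size was 1.28 over the tested contigs listed for the fat body and 0.39 over all contigs tested there. The brains and fat bodies came from the same queens, so the signs in the 2 tissues are not independent.

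TR49498c0_g1_i1 was lower in old queens in both tissues on the unadjusted scale. It had 6.34, 8.45 and 12.1 CPM in old brains against 5.67, 17.2 and 37.2 CPM in young brains, a difference of -1.08 ± 0.33 (SE, edgeR unadjusted p = 0.0049, adjusted p = 0.81). In the fat body it had 205, 395 and 759 CPM in old against 211, 1184 and 1943 CPM in young queens. The old libraries lay in the lower part of the young range or just below it in both tissues. TR73287c0_g2_i1, the KIAA0930 homolog, had the smallest p of the 86, with 41.4, 44.2 and 50.6 CPM in old brains against 33.4, 39.3 and 43.3 CPM in young brains, a difference of 0.26 ± 0.07 (SE, edgeR unadjusted p = 0.0029, adjusted p = 0.75). The contig was named after its values were seen. The most abundant contig, TR57929c2_g1_i1, had a brain difference of -0.50 ± 0.58 (SE, edgeR adjusted p = 1), with old brains spread over 101 to 636 CPM and young brains over 71.3 to 1512 CPM.

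**Figure D4:**
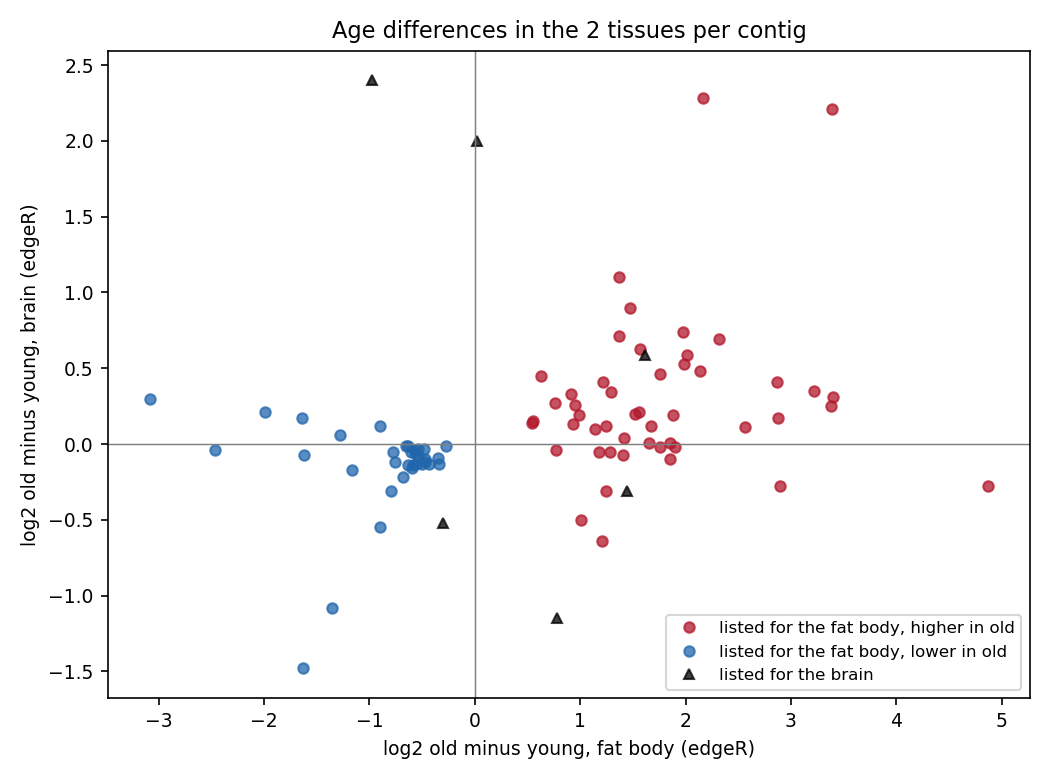
Age difference in the fat body (horizontal axis, log2 old minus young) against age difference in the brain (vertical axis, log2 old minus young); each point is a contig tested in both tissues. Among contigs listed for the fat body 66 of 83 lie in the quadrants of equal sign, and the brain differences are mostly close to 0.

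The 8 contigs listed for age in the brain were described next, with 5 higher and 3 lower in old brains. TR74272c1_g1_i1 was the most abundant in the brain. It had 210, 295 and 301 CPM in old brains against 297, 365 and 399 CPM in young brains, a difference of -0.31 ± 0.08. The groups overlapped at the edge only, between 297 and 301 CPM, and all 8 old brains lay below the young median. TR69608c0_g1_i1, matched to LOC105448107 of Wasmannia auropunctata, had 60.9, 92.7 and 108 CPM in old brains against 109, 122 and 176 CPM in young brains, a difference of -0.52 ± 0.12. Every old brain lay below every young one. TR51301c1_g1_i1, matched to LOC105561396 of Vollenhovia emeryi, had 5.01, 7.01 and 12.9 CPM in old brains against 10.4, 14.3 and 28.8 CPM in young brains, a difference of -1.15 ± 0.24 with overlap.

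TR72060c0_g2_i2, matched to LOC108767356 of Trachymyrmex cornetzi, had 39.2, 46 and 55.4 CPM in old brains against 22.1, 33.6 and 35.9 CPM in young brains, a difference of 0.59 ± 0.11. Every old brain lay above every young one. TR75644c7_g1_i1, matched to LOC105563329 of Vollenhovia emeryi, had 4.21, 10.3 and 15.5 CPM in old brains against 1.85, 3.85 and 5.59 CPM in young brains, a difference of 1.61 ± 0.29 with overlap. TR69949c0_g1_i1, matched to LOC105562368 of Vollenhovia emeryi, had 0.593, 2.11 and 14.6 CPM in old brains against 0.267, 0.948 and 1.46 CPM in young brains, a difference of 2.40 ± 0.60. In this contig 7 of 8 old brains lay above the young median. TR52985c0_g1_i1, matched to LOC105148698 of Acromyrmex echinatior, had 2.28, 5.9 and 14.9 CPM in old brains against 0.556, 1.93 and 3.13 CPM in young brains. TR72673c0_g1_i2, matched to LOC105558541 of Vollenhovia emeryi, had 2.21, 3.61 and 4.67 CPM in old brains against 1.62, 2.11 and 2.97 CPM in young brains, a difference of 0.68 ± 0.18. The groups overlapped in both contigs, and all 8 old brains lay above the young median.

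The fat body age difference did not list these 8, though fat body levels also counted toward the 5 CPM minimum. It was tested for 6 of them. In simulated data the fat body age fit recovered 2% of 2-fold and 34% of 4-fold changes. Over all contigs 0.452% were called higher and 0.195% called lower at the adjusted threshold, and 13.3% passed the unadjusted one. None of the 6 had an edgeR adjusted p under 0.05, and 1 of 6 had an unadjusted p under 0.05. That contig was TR72060c0_g2_i2, with 3.5, 9.56 and 33.9 CPM in old fat bodies against 0.547, 4.84 and 6.81 CPM in young fat bodies, a difference of 1.62 ± 0.63 (SE, edgeR adjusted p = 0.26). In a fit over all 32 libraries it was called, with a difference of 1.62 ± 0.46 (SE, edgeR adjusted p = 0.039). That fit takes the brain and fat body of a queen as independent, which they are not. TR74272c1_g1_i1 differed by 1.44 ± 0.72 in the fat body (SE, edgeR adjusted p = 0.41). Its highest old fat body was queen O-482 at 27.5 CPM, a library in which complexin was raised, and without queens O-269 and O-482 its difference was -0.04. TR69949c0_g1_i1 had the opposite sign in the fat body, -0.98 ± 0.66 (SE, edgeR adjusted p = 0.59). Between tissues, 2 of the 8 were higher in the fat body and 5 were higher in the brain, where 25.2% and 40% of all contigs were. All contigs had no 5 CPM minimum and were not chosen by a brain difference, so these shares are not of like contigs.

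**Figure D5:**
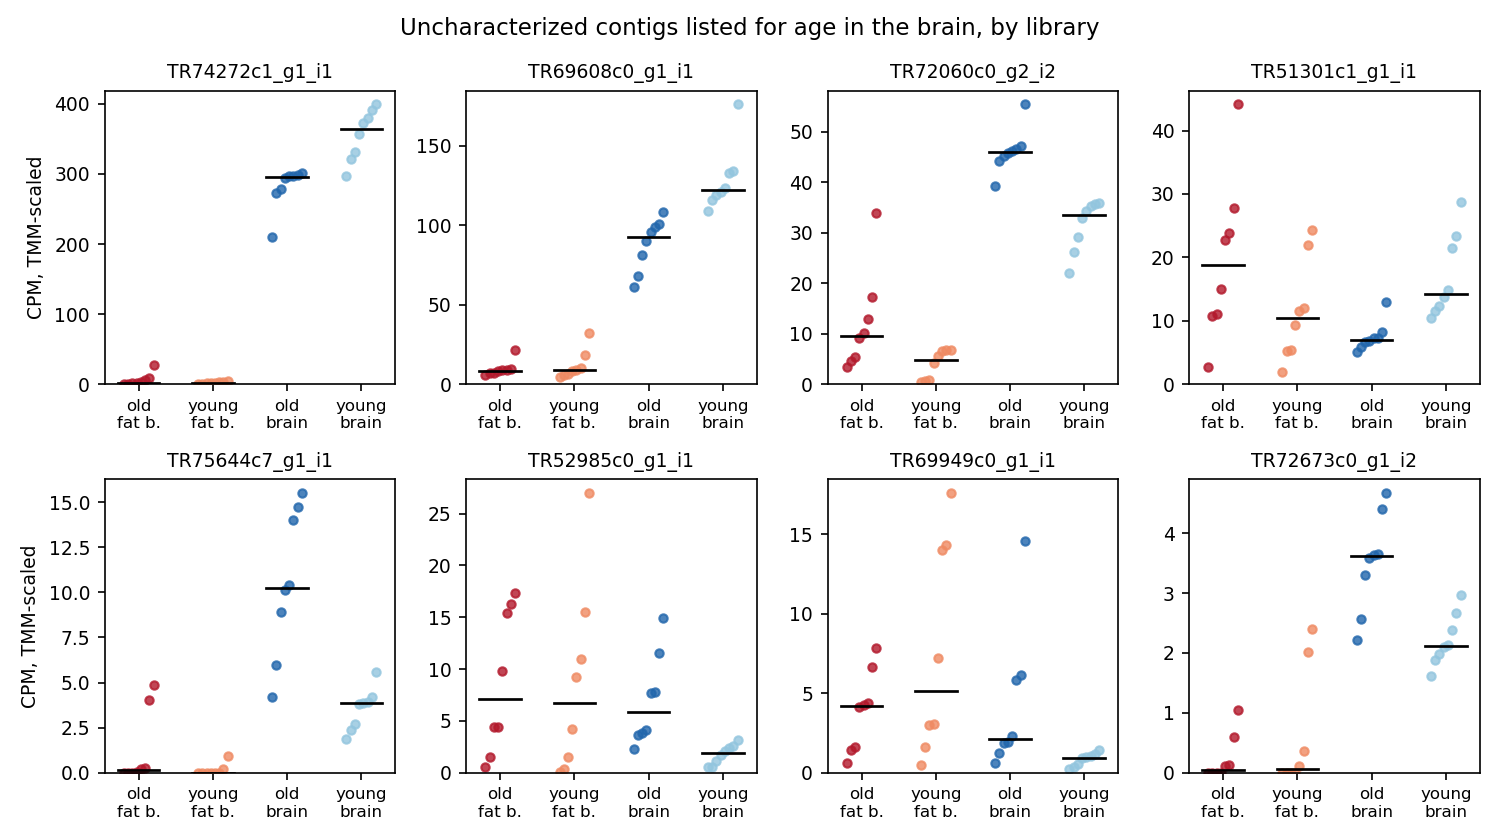
Level (vertical axis, TMM-scaled CPM) of the 8 contigs listed for age in the brain, with old fat bodies, young fat bodies, old brains and young brains in turn; points are libraries, lines are medians of 8. Old and young brains do not overlap in TR69608c0_g1_i1 and TR72060c0_g2_i2.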

How the data were processed

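The authors deposited read counts per contig of a de novo assembly for 32 libraries, as whole numbers without scaling. Of the tools in the submitters' processing notes, RSEM 1.3.0 estimates counts and DESeq2 1.2.10 tests them, without a role given there, so the counts may be rounded estimates. The authors' deposited age tables give, per the file headers, a mean signal, a log2 fold change, a test score, and a p-value with its adjusted p. They served to choose contigs and directions. Their log2 fold changes are positive where young queens were higher, and the differences printed here run the other way.

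Counts were fitted with edgeR 4.0.16 (R 4.3.3, TMM, minimum count 10 and total 15, quasi-likelihood test, Benjamini-Hochberg adjustment over all contigs tested) by tissue, by age and over 32 libraries, with limma 3.58.1 and DESeq2 1.42.0 as alternatives. The fits were tested on simulated data holding 2-fold and 4-fold changes. The tissue fit made 92 calls, of which 19 were false, more than the threshold implies. It recovered 23% of 2-fold and 50% of 4-fold changes. The brain age fit recovered 15% and 60%, and the fat body age fit 2% and 34%. Differences of both sizes were therefore often missed in the simulated data. Few contigs were changed there, while many differ between tissues in the real data, so these rates need not carry over. Queens were the replicates. Brain and fat body of a queen are paired by the labels. Their deviations from the group mean correlated at 0.351 to 0.433 within a queen and at most 0.000776 between queens. Such deviations cancel within a group, which in itself lowers the values between queens. The main tissue fits did not use this pairing, so the tissue SE and p printed above take the 2 tissues of a queen as independent. With the queen as a replicate block, the edgeR adjusted p was 5.5e-10 for TR57929c2_g1_i1 and 0.017 for TR75589c2_g1_i5. The contigs, lists and tests were chosen with earlier results of these data known. Named were the most abundant contigs, those with the widest age or tissue difference, all listed for the brain, those with a shared match, and those with libraries near 0. Contigs named for component shares or for a name in place of a number were chosen after their values were seen. No sequence was printed, since none was used here.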

Additional observations from a re-analysis of the deposited data

Results flagged for a closer look

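The Dixon test was applied to 198 groups of 8 libraries of the named contigs, on log2 of CPM plus 0.5. It takes the gap of a library to its nearest neighbour over the range of the group. In 14 groups this was above the 95% critical value. Chance gives about 1 in 20 such groups.

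The library of queen Y-102 was the one in 5 of them. In the young fat bodies this queen was lowest for TR66513c0_g1_i1 (233 CPM, the next 638) and TR48006c0_g1_i1 (1.39 CPM, the next 4.93). In the young brains it was highest for TR81923c0_g1_i1 (396 CPM, the next 201), TR71999c1_g1_i1 (103 CPM, the next 27.3) and TR74520c0_g1_i4 (49.2 CPM, the next 2.65). The first pair of contigs were higher in old fat bodies and the other three were lower there.

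Queen O-603 was lowest among the old brains for TR74272c1_g1_i1 (210 CPM, the next 273), TR67888c0_g12_i7 (5.38 CPM, the next 11.9) and TR74372c0_g1_i2 (1.86 CPM, the next 6.18). All of these were higher in the brain than in the fat body.

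Queen O-189 was lowest among the old fat bodies for TR63142c0_g1_i2 (69 CPM, the next 108) and TR63142c0_g1_i3 (39.9 CPM, the next 82.8), which belong to the same component. TR69608c0_g1_i1 was highest in the old fat body of queen O-269 (21.7 CPM, the next 9.34), a library with raised complexin, and in the young brain of queen Y-361 (176 CPM). TR57380c0_g1_i2 was highest in the young brain of queen Y-453 (19.8 CPM, the next 15.5), and TR74168c2_g1_i2 was at 0 CPM in the young fat body of queen Y-333, where the next had 1.32 CPM.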

How the results depend on the processing

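Scaling mattered most. Without TMM factors, an alternative chosen after seeing the data, 37 contigs were higher in the fat body and 44 in the brain on the mean of both ages, 34 and 46 among old queens, and 37 and 37 among young queens. At a minimum of 20 CPM the contigs higher in the brain numbered 14 on the mean of both ages and 8 among old queens, since fewer contigs were counted. With the queen as a replicate block, 62 were higher in the fat body and 24 in the brain on the mean of both ages, 58 and 15 among old queens, and 56 and 23 among young queens, and the block moved no count by over 1.5 times. A fit over all 32 libraries called 1 contig listed for the brain, higher in old fat bodies. Of 378 single-contig values under an alternative, 363 kept direction and call or moved within the spread, and 11 reversed. The reversed tissue differences were TR60948c0_g1_i1 (-0.03 by DESeq2, -0.12 without a count filter, -0.99 without TMM), TR76507c0_g1_i1 (-0.002, -0.10 and -0.97 in the same order) and TR43162c0_g1_i1 (-0.84 without TMM). The reversed fat body age differences were TR74272c1_g1_i1 (-0.04 without queens O-269 and O-482) and TR52985c0_g1_i1 (-0.01 without a count filter, -0.31 without TMM, -0.12 without those queens). The cause was not tested. TMM moved the median fat body age difference of all contigs by 0.29 and the median brain age difference by -0.04. Contigs near 5 CPM rest on few reads.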
